A study of Mus musculus with 16 samples.

Results

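Translation initiation factors are the proteins that bring the initiator tRNA, the messenger RNA and both ribosomal subunits together at the start codon. Their genes were taken as all transcript clusters of the array with a single gene symbol that starts with Eif and a digit, the eIF2 kinases (Eif2ak genes) left out, with the brightest cluster of each gene by its mean over all 16 arrays. This gave 45 genes of 19938 measured. Within a gene, the cluster was chosen by this mean level over all groups. For the 7 genes with more than 1 cluster, it was not checked which cluster lies at the locus of the gene. The platform symbol of all 45 genes was the symbol in the RefSeq table of the mouse assembly GRCm38.p6. Eif genes with no cluster of a single symbol were not tested here.

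The arrays came from 8 male Balb/cJ mice, an albino inbred strain, aged 10 weeks. To injure the retina, 4 mice were kept under cool white fluorescent light of 10000 lux for 18 hours, and tissue was taken 4 hours after the light ended. The other 4 mice, the controls, lived on a 12-hour light and dark cycle. Each mouse gave 1 sample of its retinal pigment epithelium (RPE), the single cell layer behind the photoreceptors that recycles visual pigment and takes up shed photoreceptor tips, and 1 sample of its neurosensory retina (NSR), which holds the photoreceptors, the other retinal neurons and the Müller glia. The groups were therefore light-exposed RPE, control RPE, light-exposed NSR and control NSR, with 4 mice each. All values are log2 expression levels, so that a difference of 1 is a doubling of signal. With 4 arrays a group, each mean is only as precise as so few arrays allow.

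Initiation starts with eIF2, a complex of several subunits that carries the initiator tRNA and GTP to the small ribosomal subunit. eIF2B recharges eIF2 with GTP, and the eIF2 kinases block that exchange under stress by phosphorylating eIF2. eIF3 is the largest factor and holds the small subunit, the other factors and the messenger RNA together. The eIF4 proteins bind the 5′ cap (eIF4E), bridge it to the ribosome (eIF4G) and unwind the messenger RNA (eIF4A with eIF4B and eIF4H), and the eIF4E-binding proteins hold eIF4E back when the kinase mTOR is inactive. Photoreceptors make large amounts of protein every day because their outer segments are renewed throughout life.

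RPE and photoreceptor markers went with the tissue labels, whereas markers of some other cell types were also higher in the RPE. Of 12 RPE markers, 10 were higher in control RPE than in control NSR, with a median level of 11.45 to 11.82 in light-exposed RPE and 12.30 to 12.31 in control RPE, against 5.76 to 6.05 in light-exposed NSR and 5.94 to 6.41 in control NSR. All 10 measured rod markers and 7 of 8 cone markers were lower in control RPE. Of 8 Müller glia markers, 4 were higher and 3 lower there, with a median of 11.37 to 11.39 against 9.37 to 9.48 in control NSR. Rlbp1 was on both this list and the RPE list, so the Müller glia list is not separate from the RPE. Microglia and macrophage markers (8 of 9) and fibroblast and pericyte markers (7 of 8, with 1 lower) were also higher in control RPE. The tissue comparisons are thus of bulk samples, not of single cell types. In 3 RPE arrays, markers of other eye tissues were high. RPE light 1 had a rod marker median of 8.25, with 7.18 to 7.38 in the others of its group, and a median of 7.34 for neurons other than photoreceptors, with 5.51 to 6.27 in the others. RPE light 2 had a cornea and ciliary body marker median of 8.93, with 6.13 to 6.55 in the others. RPE control 2 had a lens marker median of 7.44, with 6.29 to 6.44 in the others of its group. Rod markers also differed among the control RPE arrays, with medians of 8.13 in RPE control 1, 8.07 in RPE control 2 and 7.57 in each of the other 2. Results on the RPE are therefore also given without RPE light 1, RPE light 2 and RPE control 2, and with each array left out in turn. In these bulk samples, fewer cells of a type and less RNA per cell cannot be told apart.

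Promoter sequence is shown for Eif4a1, Eif3b, Eif3d and Eif3f, 4 genes whose array values are described in full: the helicase gene, 2 eIF3 genes called higher in both tissues, and an eIF3 gene whose responses differed between them. Each line gives the 250 bases before the annotated start in RefSeq, GRCm38.p6, 5′ to 3′ on the strand of the gene. Capitals mark an E-box (CACGTG, the same letters on both strands) or an ETS motif (CCGGAAGT, or ACTTCCGG where it lies on the other strand). The window of Eif4a1 is chr11:69672424-69672673 on the minus strand, that of Eif3b chr5:140419055-140419304 on the plus strand, that of Eif3d chr15:77970825-77971074 on the minus strand and that of Eif3f chr7:108934165-108934414 on the plus strand.
Eif4a1: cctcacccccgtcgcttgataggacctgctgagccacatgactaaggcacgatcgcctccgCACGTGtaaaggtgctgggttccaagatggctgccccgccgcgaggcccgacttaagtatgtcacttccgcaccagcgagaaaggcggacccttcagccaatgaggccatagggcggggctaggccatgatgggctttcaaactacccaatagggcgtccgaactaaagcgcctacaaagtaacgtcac
Eif3b: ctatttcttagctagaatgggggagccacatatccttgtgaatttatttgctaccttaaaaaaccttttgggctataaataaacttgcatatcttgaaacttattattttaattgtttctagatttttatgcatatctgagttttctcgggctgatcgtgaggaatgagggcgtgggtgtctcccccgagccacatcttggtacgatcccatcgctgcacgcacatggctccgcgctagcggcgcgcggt
Eif3d: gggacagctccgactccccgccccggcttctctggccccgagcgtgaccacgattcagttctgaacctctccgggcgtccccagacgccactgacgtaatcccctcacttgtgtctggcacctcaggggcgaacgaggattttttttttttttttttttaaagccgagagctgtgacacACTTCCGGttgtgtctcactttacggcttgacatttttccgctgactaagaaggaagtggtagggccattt
Eif3f: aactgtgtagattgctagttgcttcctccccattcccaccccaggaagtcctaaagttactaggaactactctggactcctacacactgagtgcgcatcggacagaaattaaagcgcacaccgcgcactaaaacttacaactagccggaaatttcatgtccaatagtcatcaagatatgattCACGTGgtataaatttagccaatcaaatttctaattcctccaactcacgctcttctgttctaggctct

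The E-box of Eif4a1 begins 189 bases before the start and that of Eif3f 68 bases before it. The ETS motif of Eif3d begins 71 bases before the start. None of the 3 motifs searched has its letters in the window of Eif3b. RefSeq windows, from 250 bases before to 50 bases after each annotated start, were matched for 35 of the 45 genes. At least 1 window held an E-box in 9 of the 35 (25.7%), against 9.5% of the 15614 measured genes with a window. The ETS motif was in 7 of the 35 (20%), against 6.01%, and the CRE motif TGACGTCA, read on both strands, in 0 of the 35, against 2.72%. A match is a description of the sequence only.

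Many initiation factor genes were higher in the RPE after light. Of the 45 genes, 21 were higher and 1 was lower in light-exposed than in control RPE by limma at an adjusted p under 0.05. Over all 19938 genes, 17.6% were called, 9.08% higher and 8.53% lower. The 45 genes were bright, with array medians of 9.32 to 10.05, where the upper quartile of the mean levels of all genes was 8.19. With the dimmest 25% of genes left out, 1902 of 14953 genes were called higher and 1773 lower. Of the 44 initiation factor genes that stayed, 21 were higher and 1 lower. No set of genes matched in level was compared. The log2 difference was above 0 for 40 of the 45, with a median of 0.22, against -0.01 over all genes. All 4 light-exposed arrays lay above all 4 control arrays for 24 of the 45 and below them for 1, against 11.3% and 10.9% of all genes. The changes were small: the largest rise was that of Eif3b, 1.54-fold, and the one fall that of Eif4ebp2, 1.31-fold.

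With RPE light 1, RPE light 2 and RPE control 2 left out, which leaves 2 light-exposed and 3 control arrays, 7 genes were called, all higher: Eif1a, Eif2b3, Eif3b, Eif3d, Eif4a1, Eif4e2 and Eif5a. Over all 19938 genes, 998 were called higher and 1058 lower in this fit. For the 45 initiation factor genes the median difference was again 0.22, and 39 of them were above 0. With 1 array left out at a time, 17 to 22 genes were called (21 without RPE control 1).

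In the NSR, 14 genes were higher and 2 were lower after light, against 15.1% of all genes called, 8.87% higher and 6.24% lower. With the dimmest 25% of genes left out, 1853 of 14953 genes were called higher and 1312 lower. Among the 44 initiation factor genes that stayed, the calls were again 14 higher and 2 lower. The difference was above 0 for 35 of the 45, with a median of 0.11, against -0.02 over all genes. The arrays did not overlap for 15 genes that were higher and 3 that were lower, against 10.7% and 9.97% of all genes. With 1 array left out at a time, 11 to 15 genes were called, with 9 higher without NSR light 3.

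Both tissues shared 8 genes called higher: Eif1a, Eif2s3x, Eif3a, Eif3b, Eif3d, Eif3i, Eif4a1 and Eif6. This is 17.8% of the 45, against 3.23% of all genes. With RPE light 1, RPE light 2 and RPE control 2 left out, the RPE calls of Eif2s3x, Eif3a, Eif3i and Eif6 were lost. A further 12 (26.7%) were called higher in the RPE and not called in the NSR, against 5.57% of all genes. In turn, 6 (13.3%) were called higher in the NSR and not called in the RPE, against 4.99%. A call in 1 tissue alone does not show that the responses differ. Among the genes called higher in 1 tissue alone, Eif2b4, Eif3f, Eif3h, Eif3m, Eif4e2 and Eif5a2 were called in the difference of the responses. Eif3e was called in opposite directions, as were 0.933% of all genes. Eif4ebp2 was called lower in the RPE and Eif4e1b lower in the NSR. Called in neither tissue were 16 genes (35.6%), against 72.9% of all genes. Over the 45 genes the RPE and NSR differences had a Pearson correlation of 0.33 and a Spearman correlation of 0.36, as a description across genes, which share the same arrays. Over all genes the same values were 0.33 and 0.27.

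**Figure D1:**
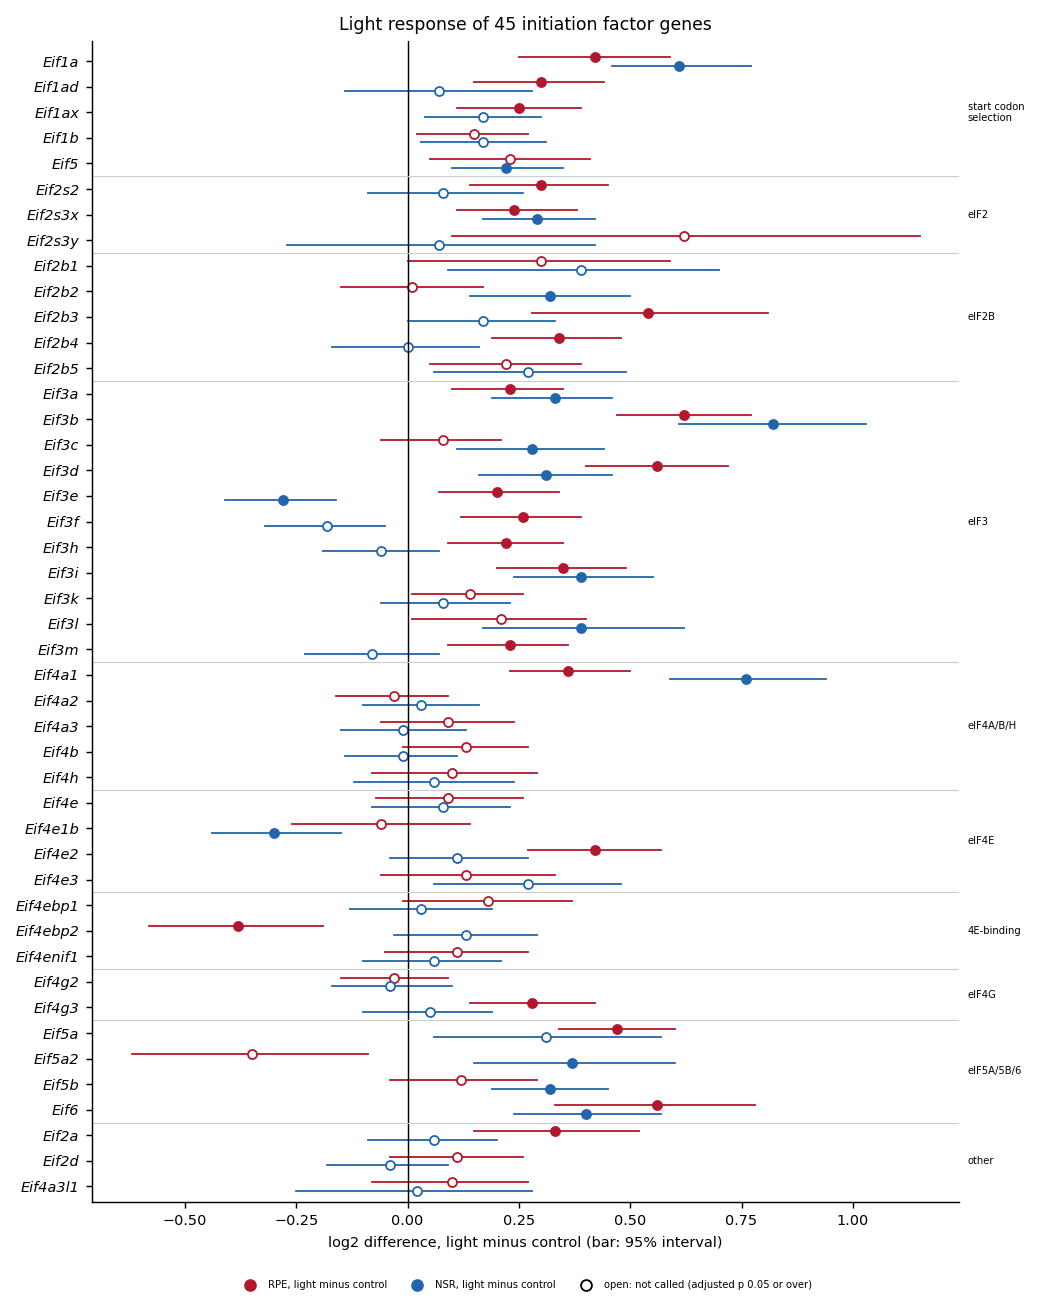
Log2 difference, light minus control, of the 45 initiation factor genes by factor, in the RPE (red) and in the NSR (blue), 4 mice a group; bars are 95% intervals and filled points are called at an adjusted p under 0.05. Most RPE points lie to the right of 0, 40 of 45, and eIF3 holds both the largest rise in the NSR, Eif3b, and the fall of Eif3e.

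Among the 11 eIF3 subunit genes, 8 were higher in light-exposed RPE and all 11 had a difference above 0. In the NSR, 6 were higher (Eif3a, Eif3b, Eif3c, Eif3d, Eif3i and Eif3l) and 1, Eif3e, was lower. Over all genes, 9.08% were called higher in the RPE, and 8.87% higher and 6.24% lower in the NSR. Eif3b encodes a core subunit that serves as a scaffold for the others. Its level was 9.78, 9.75, 9.92 and 9.90 in light-exposed RPE, against 9.31, 9.21, 9.15 and 9.17 in control RPE. NSR levels of Eif3b were 8.68, 8.94, 9.11 and 8.91 after light, against 8.16, 8.21, 8.06 and 7.92 in controls. Every light-exposed array was above every control array in both tissues. The log2 difference was 0.62 ± 0.07 (SE, n = 4 a group, limma adjusted p = 0.000196) in the RPE and 0.82 ± 0.10 (adjusted p = 9.41e-05) in the NSR, and both calls held under all alternatives. These responses were not called different between the tissues (-0.20 ± 0.12, 95% interval -0.45 to 0.06).

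Eif3d encodes the subunit that can itself bind the cap of some messenger RNAs. It stood at 10.33, 10.53, 10.61 and 10.51 in light-exposed RPE, against 9.89, 9.93, 10.00 and 9.95 in control RPE, a difference of 0.56 ± 0.07 (adjusted p = 0.000573). Its NSR levels were 9.97, 9.98, 10.18 and 9.96 after light, against 9.72, 9.77, 9.73 and 9.64 in controls, a difference of 0.31 ± 0.07 (adjusted p = 0.0104). The groups did not overlap in either tissue, and NSR light 3 was well above the other 3 arrays of its group. Eif3i encodes a subunit with a propeller fold of WD repeats. It stood at 10.28, 10.26, 10.16 and 10.33 in light-exposed RPE, against 9.87, 9.98, 9.96 and 9.82 in control RPE. NSR levels were 9.61, 9.76, 9.76 and 9.61 after light, against 9.32, 9.23, 9.41 and 9.21 in controls. No arrays overlapped, and it rose by 0.35 ± 0.07 in the RPE (adjusted p = 0.00424) and by 0.39 ± 0.07 in the NSR (adjusted p = 0.00272). Eif3a, the largest subunit, rose by 0.23 ± 0.06 in the RPE (adjusted p = 0.022) and by 0.33 ± 0.06 in the NSR (adjusted p = 0.00294).

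Eif3e, Eif3f, Eif3h and Eif3m had responses that differed between the tissues. They encode members of the octamer of subunits around which eIF3 is built: Eif3f and Eif3h carry MPN domains, Eif3e and Eif3m PCI domains. Eif3e stood at 9.92, 10.00, 10.06 and 9.97 in light-exposed RPE, against 9.82, 9.73, 9.82 and 9.77 in control RPE, and at 9.67, 9.75, 9.70 and 9.76 in light-exposed NSR, against 10.02, 9.97, 10.03 and 10.00 in control NSR. Light-exposed arrays were thus all above controls in the RPE and all below them in the NSR. The difference was 0.20 ± 0.06 in the RPE (adjusted p = 0.0414) and -0.28 ± 0.06 in the NSR (adjusted p = 0.00568).

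Eif3f stood at 10.23, 10.12, 10.30 and 10.20 in light-exposed RPE, against 9.98, 9.93, 9.98 and 9.92 in control RPE, a rise of 0.26 ± 0.06 (adjusted p = 0.0146). NSR levels of Eif3f were 10.06, 10.03, 9.95 and 9.94 after light, against 10.21, 10.25, 10.14 and 10.12 in controls. These NSR arrays did not overlap, but the difference of -0.18 ± 0.06 was not called (adjusted p = 0.0755). Eif3h rose by 0.22 ± 0.06 in the RPE (adjusted p = 0.0252) and had a difference of -0.06 ± 0.06 in the NSR (adjusted p = 0.562). Eif3m stood at 10.64, 10.72, 10.78 and 10.65 in light-exposed RPE, against 10.47, 10.54, 10.44 and 10.44 in control RPE, with no overlap. Its NSR levels, 10.64, 10.64, 10.68 and 10.76 after light against 10.76, 10.89, 10.73 and 10.65 in controls, overlapped. It rose by 0.23 ± 0.06 in the RPE (adjusted p = 0.0275) and had a difference of -0.08 ± 0.07 in the NSR (adjusted p = 0.501).

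The difference between the tissues' responses, RPE minus NSR, was called for all 4: 0.48 ± 0.07 for Eif3e (adjusted p = 0.0002), 0.44 ± 0.08 for Eif3f (adjusted p = 0.00111), 0.31 ± 0.09 for Eif3m (adjusted p = 0.0263) and 0.28 ± 0.07 for Eif3h (adjusted p = 0.0156). Over all genes 13.2% were called in this comparison, 5.16% higher and 8.05% lower. The calls of all 4 held with each array centred on its median and with quantile normalization. With RPE light 1, RPE light 2 and RPE control 2 left out, those of Eif3e and Eif3f held, and those of Eif3h (adjusted p = 0.0595) and Eif3m (0.0531) did not. The Eif3m difference was also lost without RPE control 3, RPE control 4, RPE light 3, NSR control 2, NSR light 1 or NSR light 2, each left out alone (adjusted p 0.0504 to 0.0567), and with the mean of its 2 clusters (0.30, adjusted p = 0.0562).

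Within the RPE, the calls of Eif3a, Eif3e, Eif3f, Eif3h, Eif3i and Eif3m were lost without the 3 arrays that stood apart (adjusted p 0.0604 to 0.185, with differences of 0.21 to 0.36). Single arrays decided some of them. The Eif3e call was lost without any 1 of the RPE arrays but RPE light 1 (0.0655 to 0.107). The Eif3a call was lost without RPE control 2, RPE control 4, RPE light 2 or RPE light 3 (0.0513 to 0.0639). That of Eif3h was lost without RPE control 3, RPE control 4, RPE light 1, RPE light 2 or RPE light 3 (0.0509 to 0.0706), and that of Eif3m without RPE control 1, RPE control 3, RPE control 4, RPE light 2 or RPE light 3 (0.0621 to 0.0718) and with the mean of its 2 clusters (0.0582).

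Eif3c, Eif3k and Eif3l were not called in the RPE. Eif3c and Eif3l rose in the NSR, by 0.28 ± 0.07 (adjusted p = 0.0262) and 0.39 ± 0.10 (adjusted p = 0.0239), and had RPE differences of 0.08 ± 0.06 and 0.21 ± 0.09 that were not called. The NSR call of Eif3c was lost without NSR control 3, NSR control 4, NSR light 2, NSR light 3 or NSR light 4 (0.0536 to 0.063). That of Eif3l was lost without NSR control 1, NSR control 2, NSR light 1 or NSR light 3 (0.0582 to 0.0702) and with quantile normalization (0.32, adjusted p = 0.0541), which left 5 eIF3 genes called higher in the NSR. Eif3k was not called in either tissue, with 0.14 ± 0.06 in the RPE and 0.08 ± 0.06 in the NSR, although its 4 light-exposed RPE arrays, at 10.98 to 11.06, lay above the control arrays, at 10.84 to 10.92.

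**Figure D2:**
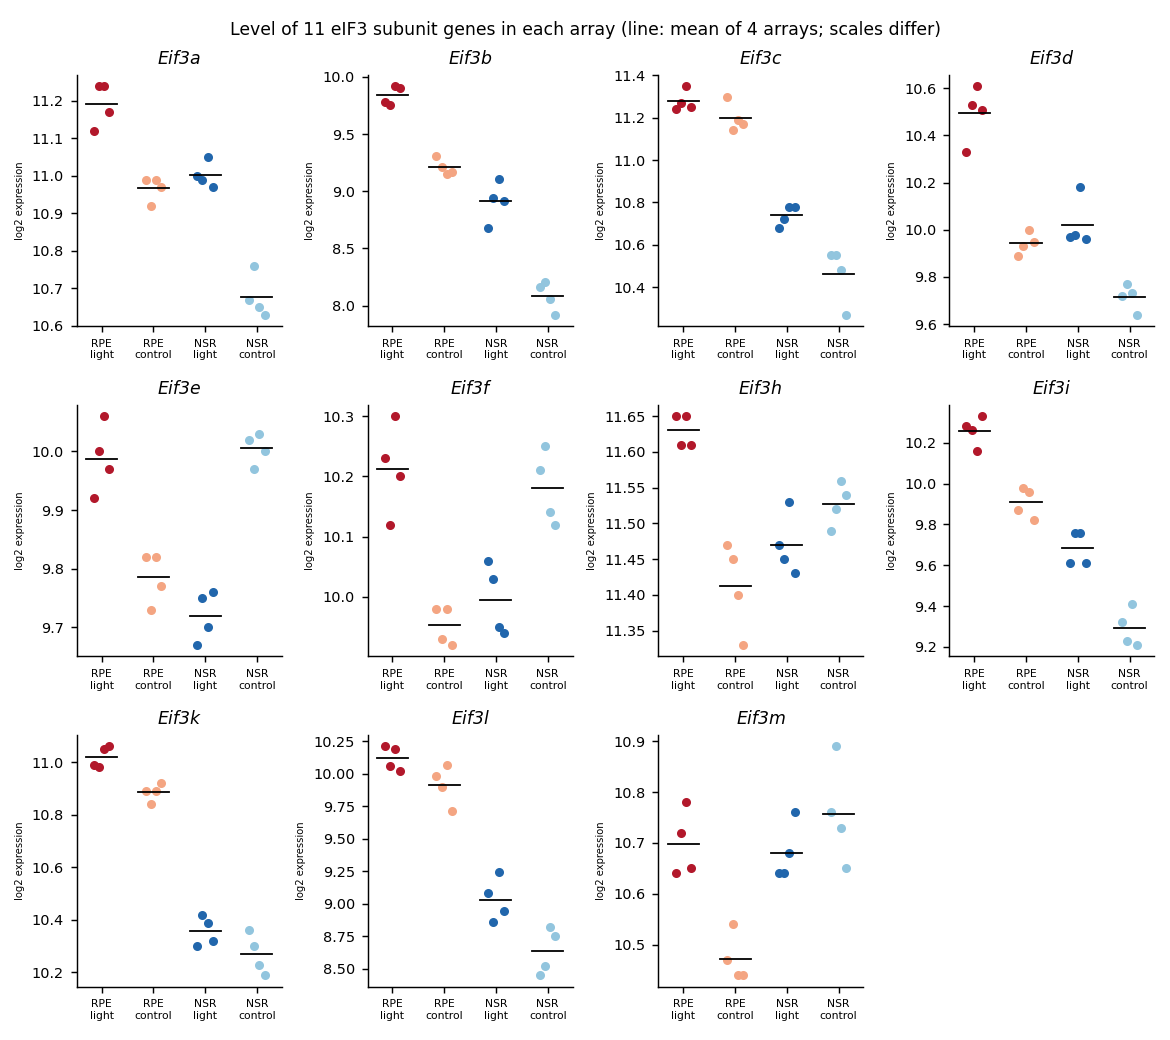
Log2 level of the 11 eIF3 subunit genes in each of the 16 arrays, with the group mean as a line; the scales differ between genes. Eif3a, Eif3b, Eif3d and Eif3i lie higher after light in both tissues, whereas Eif3e lies higher after light in the RPE and lower in the NSR.

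Among the genes of eIF2 and of its exchange factor, in the RPE 2 of 3 eIF2 genes and 2 of 5 eIF2B genes were called higher. In the NSR 1 of 3 and 1 of 5 were, with none lower in either tissue. Over all genes, 9.08% were called higher in the RPE and 8.87% in the NSR. Without the 3 RPE arrays that stood apart, 0 of 3 eIF2 genes and 1 of 5 eIF2B genes were called in the RPE. Eif2s3x, the X-linked gene of the gamma subunit, stood at 11.58, 11.54, 11.66 and 11.58 in light-exposed RPE, against 11.38, 11.29, 11.41 and 11.30 in control RPE. Its NSR levels were 11.30, 11.35, 11.34 and 11.37 after light, against 11.05, 11.07, 11.01 and 11.05 in controls. The groups did not overlap, and the rises were 0.24 ± 0.06 in the RPE (adjusted p = 0.0173) and 0.29 ± 0.06 in the NSR (adjusted p = 0.00401). The RPE call was lost without RPE control 2 or RPE control 4 (0.0505 and 0.0513) and without the 3 arrays that stood apart (0.123).

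Eif2s2, the gene of the beta subunit, stood at 11.39, 11.35, 11.49 and 11.23 in light-exposed RPE, against 11.07, 11.04, 11.09 and 11.08 in control RPE, a rise of 0.30 ± 0.07 (adjusted p = 0.013) that was lost without the 3 arrays (0.153). Its other cluster, which was not tested, had a difference of 0.09 in the RPE with overlapping arrays. Its NSR difference was 0.08 ± 0.08 and not called. Eif2s3y, the Y-linked copy of the gamma subunit gene, had the highest SD of the 45 in both control groups, 0.55 in the RPE and 0.40 in the NSR. It stood at 8.81, 8.48, 8.96 and 8.65 in light-exposed RPE, against 7.58, 8.36, 7.70 and 8.75 in control RPE, and its difference of 0.62 ± 0.24 was not called (adjusted p = 0.108). In the NSR it stood at 9.62, 9.49, 9.43 and 9.60 after light, against 9.02, 9.75, 9.23 and 9.85 in controls. Control mice 1 and 3 were the lower 2 in both tissues. The probes of Eif2s3x and Eif2s3y may share signal, since the 2 genes are near copies.

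Eif2b3 and Eif2b4 encode the gamma and delta subunits of eIF2B. Eif2b3 stood at 8.41, 8.48, 8.71 and 8.70 in light-exposed RPE, against 8.04, 8.07, 8.29 and 7.74 in control RPE, a rise of 0.54 ± 0.12 (adjusted p = 0.00989) with no overlap. Eif2b4 stood at 7.32, 7.37, 7.43 and 7.30 in light-exposed RPE, against 7.15, 7.00, 6.95 and 6.97 in control RPE, a rise of 0.34 ± 0.07 (adjusted p = 0.006) that was lost without the 3 arrays (0.0858). The NSR difference of Eif2b4 was -0.00 ± 0.08, and its responses differed between the tissues by 0.34 ± 0.10 (adjusted p = 0.0315). That difference was lost in 9 of the fits that left out 1 array: RPE control 2, 3 or 4, RPE light 2 or 3, NSR control 1 or 4, or NSR light 2 or 4 (0.0507 to 0.0665), and without the 3 arrays together (0.0992).

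Eif2b2, the gene of the beta subunit, showed the reverse order of calls. It stood at 8.34, 8.52, 8.42 and 8.22 in light-exposed NSR, against 7.90, 8.14, 8.03 and 8.13 in control NSR, a rise of 0.32 ± 0.08 (adjusted p = 0.0204). That call was lost without NSR control 1, NSR control 3, NSR light 2 or NSR light 3 (0.0507 to 0.0629). In the RPE its difference was 0.01 ± 0.07, and the difference of the responses was not called (-0.31 ± 0.11, adjusted p = 0.0783). Eif2b1 and Eif2b5, the genes of the alpha and epsilon subunits, were not called, with 0.30 ± 0.13 and 0.22 ± 0.08 in the RPE and 0.39 ± 0.14 and 0.27 ± 0.10 in the NSR.

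Of the 5 genes grouped under start codon selection, 3 were higher in light-exposed RPE and 2 in light-exposed NSR. The shares called higher over all genes were 9.08% and 8.87%. The group includes Eif1ad, whose role in start codon selection was not tested. Eif1a encodes eIF1A, which helps the small subunit scan for the start codon. It stood at 8.33, 8.32, 8.59 and 8.43 in light-exposed RPE, against 8.10, 7.97, 7.93 and 7.97 in control RPE, a rise of 0.42 ± 0.08 (adjusted p = 0.00361). Its NSR levels were 8.85, 8.92, 8.84 and 8.77 after light, against 8.20, 8.34, 8.28 and 8.11 in controls, a rise of 0.61 ± 0.07 (adjusted p = 8.02e-05). The groups did not overlap in either tissue, and both calls held under all alternatives. Eif1ax, a near copy whose probes may share signal with it, rose by 0.25 ± 0.06 in the RPE (adjusted p = 0.0189), a call lost without RPE control 4 (0.0558) and without the 3 arrays (0.117). Its NSR difference of 0.17 ± 0.06 was not called (adjusted p = 0.076).

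Eif1ad encodes a protein with a domain like that of eIF1A. It stood at 9.24, 9.18, 9.28 and 9.16 in light-exposed RPE, against 8.86, 9.03, 8.95 and 8.84 in control RPE, with no overlap. It rose by 0.30 ± 0.07 in the RPE (adjusted p = 0.0112), a call lost without the 3 arrays (0.063), and had 0.07 ± 0.10 in the NSR. Eif5 encodes the protein that makes eIF2 split its GTP once the start codon is found. It stood at 11.60, 11.60, 11.67 and 11.63 in light-exposed NSR, against 11.36, 11.41, 11.41 and 11.43 in control NSR, a rise of 0.22 ± 0.06 (adjusted p = 0.0216) with no overlap. That call was lost without NSR control 1 or NSR light 3 (0.0508 to 0.0594). In the RPE its arrays did not overlap either, but the difference of 0.23 ± 0.08 was not called (adjusted p = 0.0786), and RPE light 3, at 11.84, was far above 11.57 to 11.60 in the other light-exposed arrays. Eif1b, a paralog of the scanning factor eIF1, was not called, with 0.15 ± 0.06 in the RPE and 0.17 ± 0.06 in the NSR.

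Among the eIF4A, eIF4B and eIF4H genes, Eif4a1 alone was called in either tissue. It encodes the main RNA helicase of initiation. Its level was 11.62, 11.67, 11.76 and 11.73 in light-exposed RPE, against 11.37, 11.35, 11.27 and 11.34 in control RPE. NSR levels of Eif4a1 were 11.13, 11.17, 11.25 and 10.97 after light, against 10.26, 10.49, 10.30 and 10.42 in controls. No arrays overlapped, and the rises were 0.36 ± 0.06 in the RPE (adjusted p = 0.00202) and 0.76 ± 0.08 in the NSR (adjusted p = 3.89e-05), which held under all alternatives. The response was larger in the NSR: RPE minus NSR was -0.40 ± 0.10 (adjusted p = 0.00985), a call lost without the 3 RPE arrays (-0.34, 0.0827). The other 2 clusters of Eif4a1, which were not tested, had differences of 0.28 and 0.31 in the RPE and 0.56 and 0.62 in the NSR.

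The other genes of this group were not called. The probes of the near copies Eif4a1 and Eif4a2, and of Eif4a3 and Eif4a3l1, may share signal. Eif4a2, the paralog of Eif4a1, had -0.03 ± 0.06 in the RPE (95% interval -0.16 to 0.09) and 0.03 ± 0.06 in the NSR (-0.10 to 0.16). Eif4a3, a helicase of the exon junction complex, had 0.09 ± 0.07 and -0.01 ± 0.06. Eif4b and Eif4h, which stimulate the helicase, had 0.13 ± 0.06 and 0.10 ± 0.08 in the RPE and -0.01 ± 0.06 and 0.06 ± 0.08 in the NSR.

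Cap binding and its inhibitors changed gene by gene. Eif4e, the gene of the main cap-binding protein, was not called, with 0.09 ± 0.07 in the RPE (95% interval -0.07 to 0.26) and 0.08 ± 0.07 in the NSR (-0.08 to 0.23). Of its other 2 clusters, which were not tested, one had a difference of 0.25 in the RPE, at 9.81, 9.76, 9.83 and 9.83 after light against 9.69, 9.51, 9.53 and 9.49 in controls, with no overlap, and the other -0.06. Eif4e2 encodes 4EHP, a cap-binding protein that does not join eIF4G and represses translation. It stood at 8.84, 8.95, 9.02 and 8.94 in light-exposed RPE, against 8.52, 8.47, 8.44 and 8.65 in control RPE, a rise of 0.42 ± 0.07 (adjusted p = 0.00205) with no overlap that held under all alternatives. In the NSR its groups overlapped, with 0.11 ± 0.07. The difference of the responses was 0.31 ± 0.10 (adjusted p = 0.0416). It was lost in 11 of the fits that left out 1 array, all but those without RPE control 4, RPE light 1, NSR control 3, NSR control 4 or NSR light 2 (0.0579 to 0.0845), with each array centred on its median (0.0564) and without the 3 arrays (0.0818).

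Eif4ebp2, which encodes an eIF4E-binding protein, was the only one of the 45 called lower in the RPE. It stood at 7.91, 8.07, 7.76 and 8.05 in light-exposed RPE, against 8.42, 8.25, 8.44 and 8.21 in control RPE. Every light-exposed array was below every control array, by -0.38 ± 0.09 on average (adjusted p = 0.0128). In the NSR it stood at 7.91, 7.74, 7.85 and 7.74 after light, against 7.69, 7.56, 7.65 and 7.80 in controls, which overlap (0.13 ± 0.07, adjusted p = 0.257). The responses differed by -0.52 ± 0.11 (adjusted p = 0.0048), under all alternatives. The RPE call was lost without the 3 arrays that stood apart (-0.45, 0.0633).

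Eif4ebp1, its paralog, and Eif4enif1, which carries eIF4E into the nucleus, were not called, with 0.18 ± 0.09 and 0.11 ± 0.07 in the RPE and 0.03 ± 0.07 and 0.06 ± 0.07 in the NSR. Eif4e1b, an eIF4E form known from oocytes, was lower in the NSR, at 6.11, 6.11, 6.01 and 6.09 after light, against 6.50, 6.26, 6.37 and 6.37 in controls (-0.30 ± 0.07, adjusted p = 0.0114). Those levels were below the median of all genes, 6.81, and the mean of its 2 clusters was not called (-0.22, adjusted p = 0.165). Eif4e3 was not called in either tissue, with 0.13 ± 0.09 in the RPE and 0.27 ± 0.10 in the NSR.

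Eif4g3 encodes a scaffold that links eIF4E to eIF4A and eIF3. It stood at 9.87, 9.96, 10.05 and 9.98 in light-exposed RPE, against 9.72, 9.71, 9.62 and 9.69 in control RPE, a rise of 0.28 ± 0.06 (adjusted p = 0.0107) with no overlap, which was lost without the 3 arrays (0.34, 0.0533). In the NSR it had 0.05 ± 0.07 and was not called. Eif4g2, a scaffold that lacks the eIF4E site, stood at 12.21 to 12.24 in light-exposed RPE against 12.22 to 12.28 in control RPE, and differences of -0.03 ± 0.05 in the RPE (95% interval -0.15 to 0.09) and -0.04 ± 0.06 in the NSR (-0.17 to 0.10).

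The genes of subunit joining and of the late factors eIF5A and eIF6 differed from one another. Eif6 encodes a protein that keeps the large ribosomal subunit apart from the small one. It stood at 8.66, 8.91, 9.01 and 8.53 in light-exposed RPE, against 8.29, 8.22, 8.15 and 8.22 in control RPE, a rise of 0.56 ± 0.10 (adjusted p = 0.00394) that was lost without the 3 arrays (0.55, 0.0571). NSR levels of Eif6 were 8.02, 8.16, 8.25 and 7.97 after light, against 7.69, 7.76, 7.72 and 7.62 in controls, a rise of 0.40 ± 0.08 (adjusted p = 0.00343). The groups did not overlap in either tissue. Eif5b, the gene of the factor that joins the subunits, rose in the NSR, at 10.91, 10.89, 10.93 and 10.90 after light, against 10.58, 10.62, 10.66 and 10.52 in controls (0.32 ± 0.06, adjusted p = 0.00318). Its RPE difference of 0.12 ± 0.07 was not called.

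Eif5a and Eif5a2 encode the 2 forms of eIF5A, the protein that carries the amino acid hypusine. Eif5a stood at 10.04, 10.03, 10.08 and 9.92 in light-exposed RPE, against 9.53, 9.57, 9.54 and 9.55 in control RPE, a rise of 0.47 ± 0.06 (adjusted p = 0.000464) that held under all alternatives. Its other cluster, which was not tested, had a smaller difference of 0.23. Its NSR difference of 0.31 ± 0.12 was not called (adjusted p = 0.099). Eif5a2 stood at 6.84, 7.31, 7.22 and 6.98 in light-exposed RPE, against 7.44, 7.58, 7.56 and 7.20 in control RPE. These groups overlap, and the difference of -0.35 ± 0.12 was not called (adjusted p = 0.0747).

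In the NSR, Eif5a2 stood at 7.82, 7.94, 8.18 and 7.67 after light, against 7.52, 7.49, 7.69 and 7.42 in controls, a rise of 0.37 ± 0.10 (adjusted p = 0.0299) with NSR light 4 just below NSR control 3. That call was lost without NSR control 1, NSR control 2, NSR control 4, NSR light 2 or NSR light 3 (0.0638 to 0.0838) and with quantile normalization (0.30, adjusted p = 0.0506). The responses of Eif5a2 differed by -0.73 ± 0.17 (adjusted p = 0.00677), the largest such difference called among the 45, and that call held under all alternatives. The paralogs thus had RPE differences of opposite sign, of which that of Eif5a was called.

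**Figure D3:**
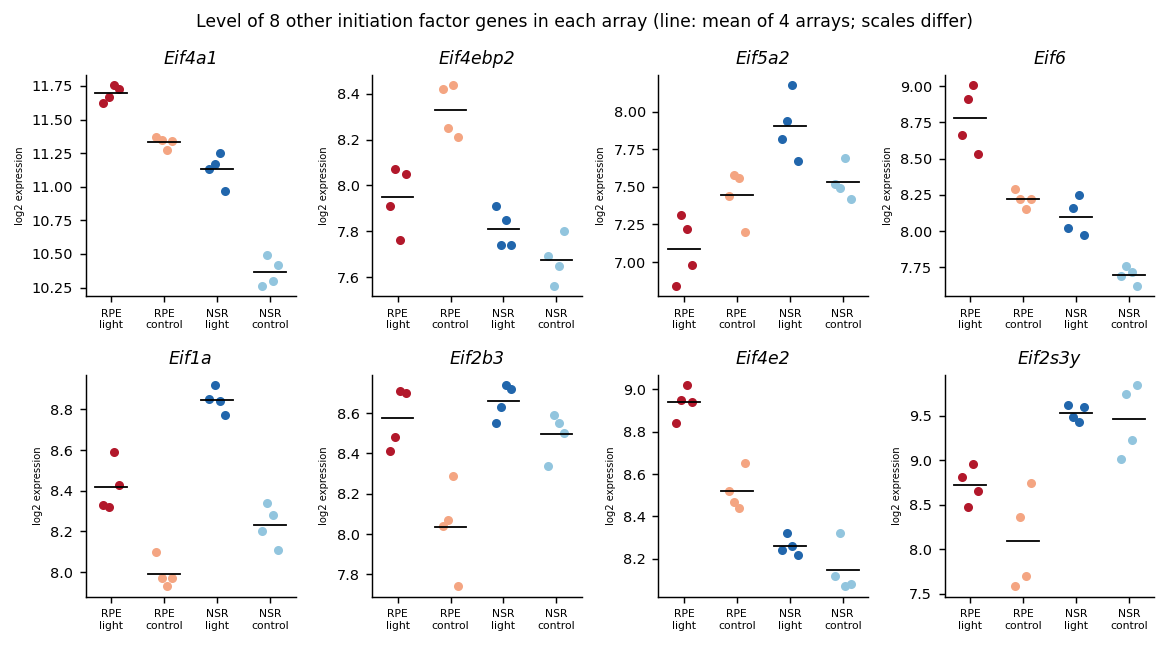
Log2 level in each of the 16 arrays of 8 further initiation factor genes, with the group mean as a line; the scales differ between genes. Eif4a1, Eif6 and Eif1a are higher after light in both tissues, Eif4ebp2 is lower after light in the RPE, Eif5a2 has means of 7.09 against 7.44 in the RPE and 7.90 against 7.53 in the NSR, light before control, and the control RPE arrays of Eif2s3y run between 7.58 and 8.75.

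Outside these factors, Eif2a, which can bring the initiator tRNA to the ribosome without eIF2, stood at 9.35, 9.46, 9.53 and 9.31 in light-exposed RPE, against 9.18, 9.18, 9.05 and 8.91 in control RPE, a rise of 0.33 ± 0.08 (adjusted p = 0.0187). That call was lost without RPE control 3, RPE light 2 or RPE light 3 (0.0501 to 0.0526) and without the 3 arrays (0.101). Its NSR difference was 0.06 ± 0.07. Eif2d, which also handles initiator tRNA, and Eif4a3l1, a copy of Eif4a3, were not called in either tissue. Eif4a3l1 was dim, with 4.74 to 4.97 in light-exposed RPE and 4.65 to 4.87 in control RPE, below the lower quartile of all genes, 5.63.

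In all, 9 of the 45 responses differed between the tissues: Eif2b4, Eif3e, Eif3f, Eif3h, Eif3m and Eif4e2 were higher in the RPE relative to the NSR, and Eif4a1, Eif4ebp2 and Eif5a2 lower. These 9 are 20% of the 45, against 13.2% of all genes, 5.16% higher and 8.05% lower. With RPE light 1, RPE light 2 and RPE control 2 left out, 4 of them were called: Eif3e, Eif3f, Eif4ebp2 and Eif5a2. Over all 19938 genes, 884 were then called higher and 1396 lower. With 1 array left out at a time, 6 to 10 were called, and without RPE light 3 only 3 were higher.

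**Figure D4:**
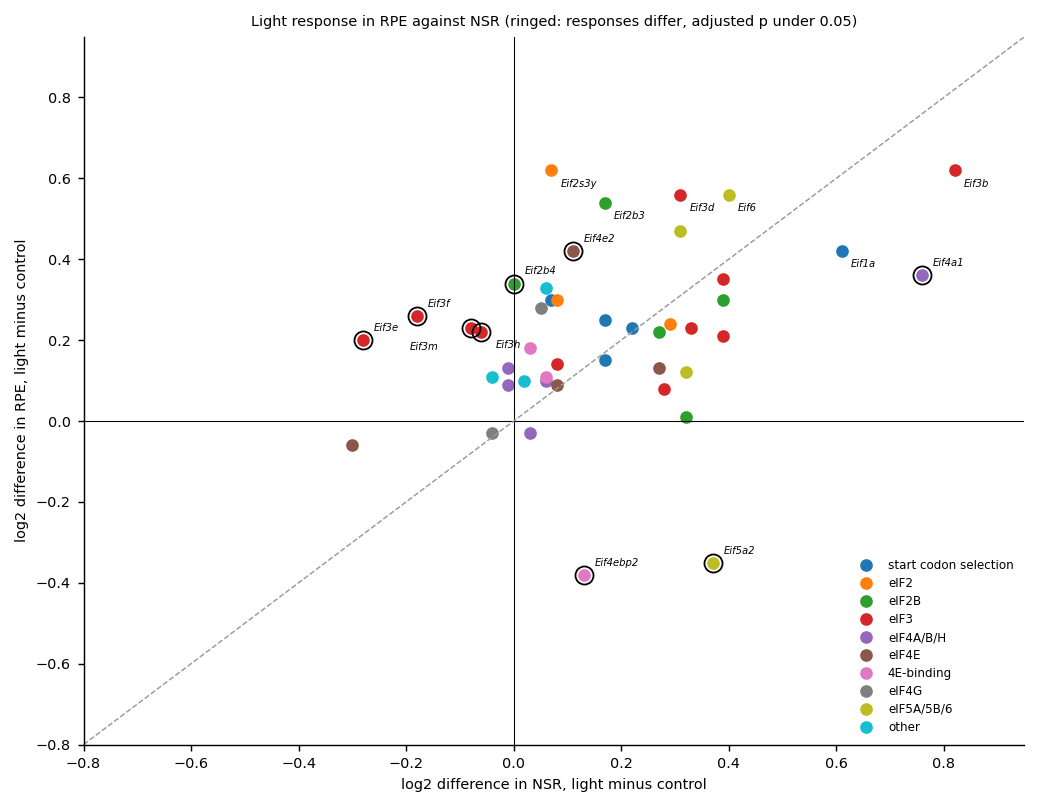
Log2 difference of each of the 45 genes in the NSR (horizontal axis) and in the RPE (vertical axis), light minus control, coloured by factor, with the line of equal responses dashed; rings mark the 9 genes whose responses differ at an adjusted p under 0.05. Eif3e, Eif3f, Eif3h and Eif3m lie above the line at the left, Eif4a1, Eif4ebp2 and Eif5a2 below it.

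The markers moved with light too. In the NSR, 10 of 10 measured rod markers were lower after light, with a sum of log2 levels of 114.0 to 116.5 after light and 120.9 to 121.3 in controls. Of 8 cone markers 6 were lower, with a sum of 68.1 to 71.4 after light and 78.1 to 78.5 in controls, and of 8 Müller glia markers 5 were lower and 1 higher, with a sum of 72.8 to 73.9 after light and 76.8 to 77.4 in controls. In the RPE, 7 of 12 RPE markers were lower, with a sum of 130.2 to 133.2 after light and 137.2 to 137.5 in controls. Of 7 measured neutrophil and monocyte markers, 4 were higher in light-exposed RPE, with a sum of 44.7 to 45.9 against 38.4 to 39.4, and 1 in light-exposed NSR, with 39.0 to 40.4 against 36.6 to 37.8. Their part in the initiation factor results was not tested.

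The 2 tissues of the same mice differed at many initiation factor genes. In control mice 19 of the 45 were higher and 13 lower in the RPE than in the NSR, against 55.0% of all genes called, 30.8% higher and 24.2% lower. The control arrays of the tissues did not overlap for 18 genes higher and 13 lower, against 29.5% and 22.8% of all genes. After light 25 were higher and 9 lower, against 58.0%, 34.4% higher and 23.6% lower. The light-exposed arrays of the tissues did not overlap for 23 genes higher and 9 lower, against 30.3% and 21.6% of all genes. The split depended on the scaling. With each array centred on its median it was 24 higher and 6 lower in controls and 31 higher and 7 lower after light, and with quantile normalization 14 higher and 20 lower in controls and 17 higher and 16 lower after light. Centring moved the median of all genes in the control comparison to 0.19, against 0.04 as deposited. The share of called genes that were higher, over all genes, was 56.0% as deposited, 72.2% centred and 50.1% with quantiles in controls, and 59.3%, 73.0% and 53.7% after light. These tissue comparisons use the same arrays as the light comparisons and are no independent check of them.

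Under all 3 scalings, 14 genes were higher and 6 lower in control RPE than control NSR, with no share over all genes at hand. Eif2b2 differed most among the higher ones, at 9.38, 9.39, 9.40 and 9.45 in control RPE, against 7.90, 8.14, 8.03 and 8.13 in control NSR, a difference of 1.35 ± 0.08 (adjusted p = 4.81e-11). Eif3l, at 9.98, 9.90, 10.07 and 9.71 in control RPE against 8.45, 8.52, 8.82 and 8.75 in control NSR, differed by 1.28 ± 0.10 (adjusted p = 3.52e-09). No array of one tissue reached those of the other at either gene. Eif3b was higher in control RPE by 1.12 ± 0.09 (adjusted p = 2.25e-09), Eif2b5 by 1.03 ± 0.09 (1.79e-08) and Eif4a1 by 0.97 ± 0.07 (8.88e-10). Eif2b5 stood at 8.69, 8.48, 8.60 and 8.43 in control RPE, against 7.61, 7.75, 7.44 and 7.27 in control NSR, again with no overlap.

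Among the genes lower in control RPE, Eif2s3y differed most, at 7.58, 8.36, 7.70 and 8.75 in control RPE, against 9.02, 9.75, 9.23 and 9.85 in control NSR (-1.36 ± 0.22, adjusted p = 3.31e-05). Its RPE level was below the NSR level in each of the 4 control mice. Eif4e3 had -0.59 ± 0.10, Eif4enif1 -0.57 ± 0.07, Eif4b -0.54 ± 0.05 and Eif2b3 -0.46 ± 0.10, with adjusted p of 3.28e-05, 9.61e-07, 9.55e-08 and 0.000848. Eif4e3 stood at 6.96, 7.01, 7.09 and 6.94 in control RPE, against 7.79, 7.34, 7.64 and 7.61 in control NSR. Eif4enif1 stood at 8.11, 7.92, 8.00 and 8.14 in control RPE, against 8.69, 8.72, 8.52 and 8.51 in control NSR. The 2 tissues did not overlap at these genes. Eif4b stood at 9.81, 9.96, 9.84 and 9.88 in control RPE, against 10.40, 10.42, 10.45 and 10.38 in control NSR, and Eif2b3 at 8.04, 8.07, 8.29 and 7.74, against 8.34, 8.59, 8.55 and 8.50. There too the tissues did not overlap. The calls of these 5 genes and of the 5 higher ones held under all alternatives, mouse as a block included.

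After light, 17 genes were higher and 7 lower in the RPE than in the NSR under all 3 scalings, again with no share over all genes at hand. Eif3l led the higher ones, with 1.09 ± 0.10 (adjusted p = 3.32e-08), before Eif2b2 with 1.04 ± 0.08 (2e-09). Eif2s3y and Eif5a2 were lowest, with -0.81 ± 0.22 (adjusted p = 0.00404) and -0.81 ± 0.12 (1.16e-05). Eif5a2 had not been called in controls (-0.08 ± 0.12). Eif3e and Eif3f changed sides as deposited. In control mice they were lower in the RPE, by -0.22 ± 0.05 (adjusted p = 0.0015) and -0.23 ± 0.06 (0.00235), and after light higher, by 0.27 ± 0.05 (0.000253) and 0.21 ± 0.06 (0.00378). With centred arrays the control differences were not called (-0.08 and -0.09, adjusted p = 0.216 and 0.178), and with quantile normalization those after light were not (0.08 and 0.03, adjusted p = 0.195 and 0.726).

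Eif4g2 shows how far the scaling decides small tissue differences. As deposited it was higher in the RPE in controls (0.15 ± 0.05, adjusted p = 0.0163) and after light (0.16 ± 0.05, 0.0121). With quantile normalization it was lower, at -0.13 (adjusted p = 0.0226) and -0.14 (0.0196). With mouse as a block it was not called (0.0944 in controls, 0.084 after light), and without NSR control 1 it was not called in controls (0.0583). The block also ended the control call of Eif4g3 (0.17 ± 0.06, adjusted p = 0.0577 with the block) and, after light, those of Eif3h (0.0787), Eif4a2 (0.0669), Eif4e1b (0.0551) and Eif4ebp1 (0.104). The Eif4g3 call was lost as well without RPE control 1, RPE control 2, NSR control 3 or NSR control 4 (0.0514 to 0.0747).

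**Figure D5:**
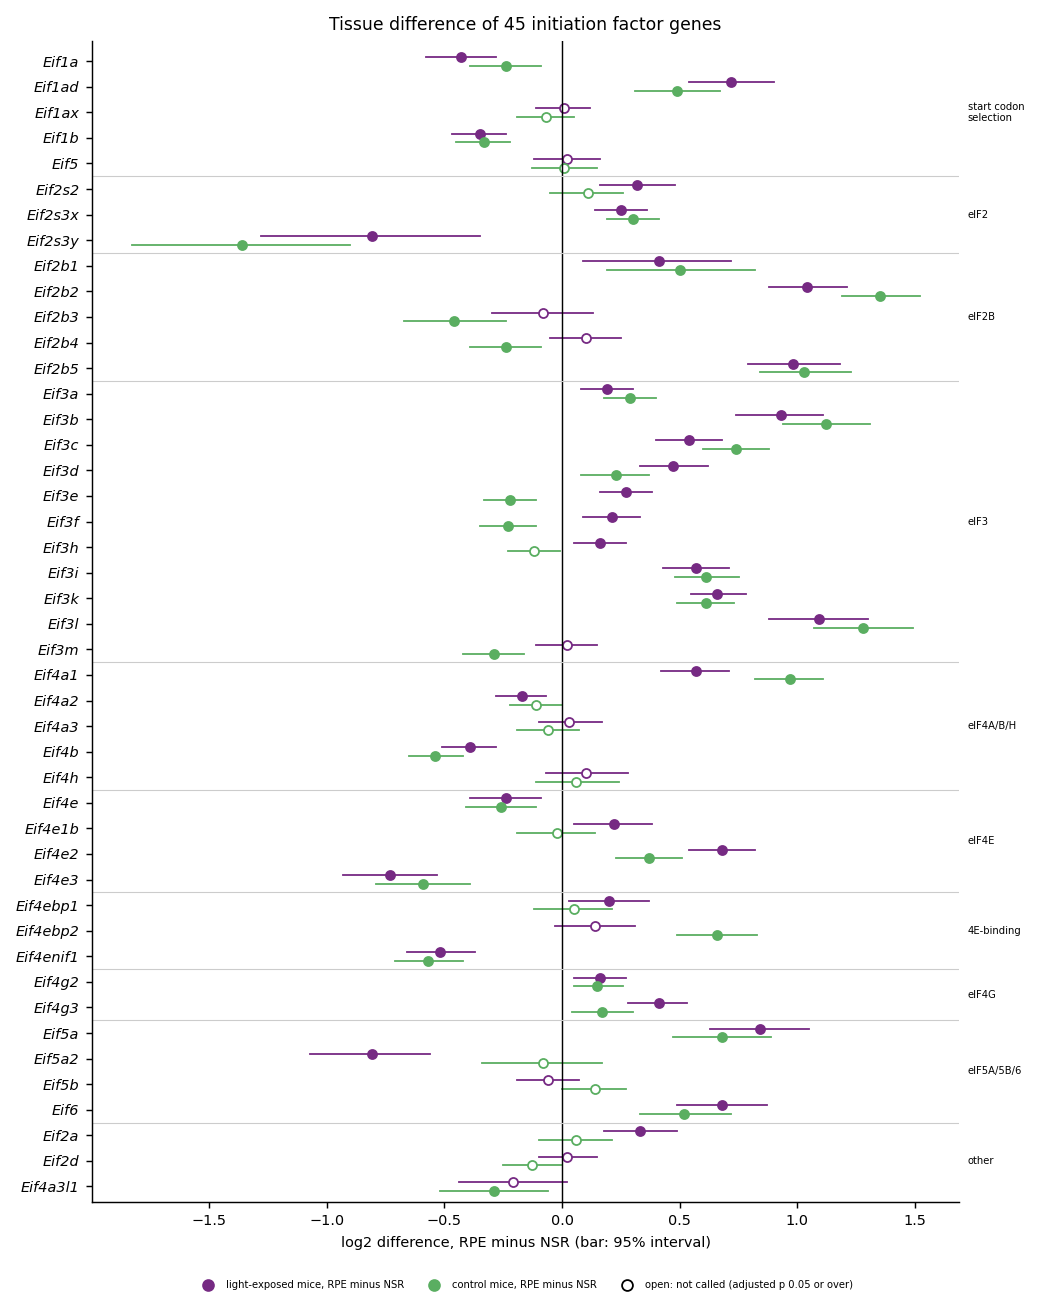
Log2 difference, RPE minus NSR, of the 45 initiation factor genes by factor, in light-exposed mice (purple) and in control mice (green), 4 mice a group; bars are 95% intervals and filled points are called at an adjusted p under 0.05. Eif2b2, Eif2b5, Eif3b and Eif3l lie far to the right and Eif2s3y to the left under both conditions, while Eif3e and Eif3f cross 0; quantile normalization or centring ends one of the 2 calls of each of them.

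The genes that control the factors were read from lists chosen for their role. Of 16 genes of the eIF2 kinases and the stress response downstream of them, 6 were higher and 2 lower in light-exposed RPE, and 8 higher and 0 lower in light-exposed NSR, with list medians of 0.05 and 0.23, where 17.6% of all genes were called in the RPE and 15.1% in the NSR. With RPE light 1, RPE light 2 and RPE control 2 left out, 6 of the 8 RPE calls held. Eif2ak2 encodes PKR, the eIF2 kinase that senses double-stranded RNA. It stood at 9.15, 9.06, 9.37 and 9.09 in light-exposed RPE, against 8.61, 8.71, 8.53 and 8.63 in control RPE. In the NSR it stood at 8.76, 8.59, 8.79 and 8.51 after light, against 5.55, 5.98, 5.64 and 5.97 in controls. The rise was 0.55 ± 0.08 in the RPE (adjusted p = 0.00112) and 2.88 ± 0.11 in the NSR, or 7.37-fold (adjusted p = 9.66e-09), and these responses differed by -2.34 ± 0.14 (adjusted p = 1.49e-08).

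Eif2ak3, the gene of PERK, the eIF2 kinase of the endoplasmic reticulum, rose in both tissues, by 0.96 ± 0.10 in the RPE (adjusted p = 0.00015) and 0.82 ± 0.09 in the NSR (6.39e-05). Eif2ak1, the gene of the heme-regulated kinase, fell in the RPE (-0.41 ± 0.07, adjusted p = 0.00348) and rose in the NSR (0.25 ± 0.07, 0.0247), where the call was lost without NSR control 1, NSR control 4, NSR light 2 or NSR light 3 (0.058 to 0.0715) and with quantile normalization (0.18, 0.0833). Atf3, a transcription factor of the response, rose by 1.85 ± 0.13 in the NSR (adjusted p = 1.14e-06). Atf4, whose messenger RNA is translated when eIF2 is phosphorylated, rose by 0.40 ± 0.07 in the NSR (0.0029). Neither was called in the RPE, with means of 8.61 after light and 8.88 in controls for Atf3 and 9.20 and 9.32 for Atf4. Trib3, Chac1 and Sesn2, also of this list, were not called in the NSR. Their means there were 6.45, 6.59 and 6.79 after light, against 6.63, 6.66 and 6.82 in controls. Ppp1r15a, which directs the phosphatase of eIF2, fell in the RPE (-0.77 ± 0.12, 0.00166). The other genes of this list called higher in the RPE were Ddit3, Asns, Gadd45a and Ppp1r15b. Their RPE means were 10.66, 6.09, 7.73 and 9.39 after light, against 9.89, 5.20, 6.74 and 9.02 in controls. The RPE calls of Ddit3 and Ppp1r15b were lost without RPE light 1, RPE light 2 and RPE control 2 (adjusted p = 0.0982 and 0.063). That of Ddit3 was also lost without RPE control 1, RPE control 2, RPE control 3 or RPE light 3 (0.059 to 0.0645).

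Of 15 measured genes of mTORC1 and MNK, the kinases that act on cap binding, 4 were higher and 4 lower in light-exposed RPE and 1 was higher and 1 lower in light-exposed NSR. Over all genes 17.6% were called in the RPE and 15.1% in the NSR, to be read beside this list and the next 2. The NSR share of this list is near that of all genes. None of the 8 RPE calls of this list held with RPE light 1, RPE light 2 and RPE control 2 left out (adjusted p 0.0582 to 0.26). Those of Pdcd4 and Tsc2 were also lost without any 1 of the 8 RPE arrays, and that of Rheb without any 1 but RPE light 1. The call of Akt1 was lost without RPE light 1, RPE light 2, RPE light 4, RPE control 1, RPE control 2 or RPE control 3, and that of Mtor without RPE light 1, RPE light 3, RPE control 1 or RPE control 4. Ddit4, which encodes an inhibitor of mTORC1, fell in both tissues, with -0.43 ± 0.07 in the RPE (adjusted p = 0.0021, and 0.0582 without the 3 arrays) and -0.37 ± 0.08 in the NSR (0.0059). Of 14 measured helpers of initiation, 2 were higher and 4 lower in the RPE and 3 higher and 0 lower in the NSR, and 2 of the 6 RPE calls held without those 3 arrays. Abce1, which encodes a protein that splits ribosomes for reuse, rose by 0.68 ± 0.07 in the RPE (adjusted p = 0.000114) and 0.41 ± 0.07 in the NSR (0.00192). Of 12 measured elongation and termination factors, 3 were higher in the RPE and 5 in the NSR, with 0 lower. Among them Eef1b2, part of the exchange factor of elongation factor 1A, rose by 0.36 ± 0.06 in the RPE (adjusted p = 0.00161) and by 0.77 ± 0.07 in the NSR (1.52e-05), and Etf1, the release factor that reads stop codons, by 0.53 ± 0.07 (0.000553) and 0.35 ± 0.07 (0.00321). The NSR calls of Eef1a1 and Gspt1 were each lost in 6 of the fits that left out 1 array (adjusted p 0.0529 to 0.0703 and 0.0743 to 0.0953).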

How the data were processed

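The 16 arrays, 1 for each tissue of each of 8 mice, are of the Affymetrix type Mouse Gene 1.0 ST, which has a single colour. Per the labels' protocols, RNA was isolated with the RNeasy Mini kit and amplified with the Ovation Pico WTA system. The authors deposited log2 expression values of 35556 transcript clusters, for which RMA and Partek 6.6 are named in the submitters' processing notes. No annotation version or filter is stated there. Values lay between 2.20 and 13.84, which fits log2, and come without detection calls, so signal over background is unknown. No label names a batch.

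Symbols came from the platform annotation. Left out were 1621 clusters of more than 1 symbol and 12146 of none, and each of the 19938 genes took its brightest cluster. With R 4.3.3 and limma 3.58.1, the light effect was fitted per tissue on its 8 arrays (lmFit and eBayes). Tissue differences and differences of responses came from 1 fit of the 4 groups (16 arrays). The call threshold was 0.05 for p-values adjusted by Benjamini-Hochberg across the 19938 genes. Fits were tested on simulated data. Figures used Python 3.11.15 and matplotlib 3.10.9.

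Alternatives were centring, quantile normalization, leaving out the dimmest 25% of genes, the mean of all clusters, a trend and robust prior, array weights, other sets of arrays in the fit, replicate or mouse blocks, and leaving out arrays. RPE and NSR of 1 mouse pair by animal; their deviations from group means correlated at -0.011 to 0.053. The genes, lists and tests were chosen with earlier results of these data known. Array values were to be given for the 2 largest called changes per factor and tissue, the 5 largest tissue differences each way and the called differences of responses (at most 5 each way); further values of called genes were added, chosen after they were seen. Replicates are separate mice.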

Additional observations from a re-analysis of the deposited data

Results flagged for a closer look

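Single arrays far from the rest of their group were found in 4 of 180 tests, each of 1 gene in 1 group of 4 arrays, where chance flags about 1 in 20. Eif1ax stood at 10.67 in RPE control 4, with 10.77 to 10.79 in the other 3. Eif3d stood at 10.18 in NSR light 3, with 9.96 to 9.98 in the others. Eif4ebp1 stood at 5.98 in NSR light 4, with 6.15 to 6.17 in the others. Eif5 stood at 11.84 in RPE light 3, with 11.57 to 11.60 in the others.

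The light response differed between the tissues, RPE minus NSR, by the test of the difference itself at 9 genes, 20% of the 45, against 13.2% of all genes. It was higher in the RPE for Eif2b4 (0.34), Eif3e (0.48), Eif3f (0.44), Eif3h (0.28), Eif3m (0.31) and Eif4e2 (0.31). It was lower in the RPE for Eif4a1 (-0.40), Eif4ebp2 (-0.52) and Eif5a2 (-0.73).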

How the results depend on the processing

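The total counts of called genes stayed within 1.5 times under all alternatives but one; counts by direction fell further without NSR light 3 (9 of 14 higher in the NSR) and without RPE light 3 (3 of 6 responses higher). With RPE light 1, RPE light 2 and RPE control 2 left out, the RPE light comparison called 7 of 22 and the difference of the responses 4 of 9; this leaves 2 light-exposed RPE arrays. Leaving out 1 array at a time gave 17 to 22 for RPE light, 11 to 15 for NSR light, 6 to 10 for the difference of the responses, 30 to 32 for the tissues of control mice and 32 to 34 for those of light-exposed mice. With replicate number as a block, the RPE comparison called 18 and the NSR comparison 15; the numbers do not pair light with control mice, whose deviations correlated at -0.017 to 0.066. With mouse as a replicate block, 9 responses differed, and 30 genes in control and 29 in light-exposed mice differed between the tissues; beyond those named, the block ended no other call among the genes printed with a value. The sign turned in 8 values, all of tissue differences. With quantile normalization they were Eif3d (-0.01), Eif4g2 (-0.13) and Eif4g3 (-0.05) in control mice, and Eif2s3x (-0.01), Eif3a (-0.06), Eif3h (-0.08) and Eif4g2 (-0.14) in light-exposed mice. With the mean of all clusters it was Eif4e in light-exposed mice (0.03). The causes were not tested. No called light response changed sign under the alternatives run. Detection above background cannot be judged from these values.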

Other observations

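Clusters that were not the brightest of their gene, or that name several genes, gave further values with no test. The second cluster of Eif2s2 differed by 0.09 in the RPE and 0.07 in the NSR, light minus control, where the brightest had 0.30 and 0.08. The second cluster of Eif5a had 0.23 and 0.12, where the brightest had 0.47 and 0.31. For Eif3m the second cluster had 0.24 and -0.05, where the brightest had 0.23 and -0.08. For Eif4enif1 the second cluster had 0.13 and -0.10, where the brightest had 0.11 and 0.06.

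The 2 clusters shared by Eif3j1 and Eif3j2, copies of an eIF3 subunit gene, had 0.08 and 0.14 in the RPE and 0.19 each in the NSR. The 4 clusters that name Eif1a with several predicted genes had 0.27 to 0.34 in the RPE and 0.38 to 0.57 in the NSR. The cluster shared by Ankhd1 and Eif4ebp3, the third eIF4E-binding protein gene, had 0.09 in the RPE and 0.02 in the NSR. The cluster shared by Snora28 and Eif5 went the other way from the Eif5 cluster tested. It had -0.19 in the RPE and -0.16 in the NSR, with overlapping arrays, where the tested cluster had 0.23 and 0.22.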
